A study of Mus musculus with 37 samples.

Results

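The members described here are 10 mouse genes for factors that open chromatin or switch on transcription when the embryo's own genome is first read: Nr5a2, Dppa2, Dppa4, Nfya, Klf4, Klf5, Klf17, Tfap2c, Rarg and Esrrb. They were chosen by gene symbol from tables of 55401 genes, and all 10 of the 10 symbols were found. The study removed Bap1, which encodes a histone H2A deubiquitinase that takes ubiquitin off lysine 119, from growing mouse oocytes. Control oocytes (CTR) carried Bap1 flox/flox without Cre, and knockout oocytes carried Gdf9-iCre, Bap1 flox/flox, in which the Gdf9 promoter drives the recombinase in oocytes. Total RNA libraries covered fully grown oocytes (FGO), MII eggs, late 1-cell embryos (L1C), early 2-cell embryos (E2C) and late 2-cell embryos (L2C), with 2 control and 3 knockout libraries at each stage except E2C, which had 3 of each, 26 libraries in all. Embryos of both groups came from such eggs and wild-type B6 sperm, so every knockout embryo was a maternal knockout (matKO) with an intact paternal Bap1, and the growth medium named is KSOM. Poly(A) libraries of embryonic day 6.5 embryos fathered by PWK males covered epiblast (EPI, 2 and 2 libraries), visceral endoderm (VE, 2 and 2) and extraembryonic ectoderm (EXE, 1 control and 2 knockout). The number of oocytes or embryos per library, the age of the mice and the breeding background of the females are not given in the sources used here, nor whether replicates came from separate mice, so the p-values measure the spread between these libraries, which may be technical.

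The egg is loaded with messenger RNA made during oocyte growth, lives on it through the first cell cycle and then replaces it with transcripts of its own. In the mouse a minor wave of transcription begins in the zygote, and the major wave follows in the late 2-cell embryo. Pioneer factors bind their sites in closed chromatin and make them accessible, and they can be supplied by the egg, made by the embryo, or both. NR5A2 and ESRRB are orphan nuclear receptors with related recognition sequences, RARG is a retinoic acid receptor, NFYA is the DNA-binding regulatory subunit of the NF-Y complex, TFAP2C is an AP-2 factor, the KLF proteins are zinc finger factors that bind GC-rich sequence, and DPPA2 and DPPA4 are SAP-domain proteins that act as a pair at CpG-rich promoters and at the Dux locus.

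Levels are in FPKM (sequenced fragments divided by gene length and by the size of the library), so they can be compared between genes, but each is a share of the RNA in its library, and fewer transcripts per embryo cannot be told apart from more of other RNA. Tests were run with limma on log2(FPKM + 1) over all 15184 genes that reached 1 FPKM in at least 2 of the 26 early libraries. All 10 members passed that filter. Log2 changes are given on that scale with their standard error, and "limma adjusted p" stands for limma's moderated test with Benjamini-Hochberg adjustment over those genes, called under 0.05. The scale understates changes of genes below a few FPKM.

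Bap1 itself ran from 16.3 to 29.9 FPKM in the control libraries and from 3.76 to 11.7 FPKM in the knockout libraries of the 5 early stages, with no overlap at any stage. Which exons the deletion removes is not given in the sources used here. The 8 oocyte markers each reached 1 FPKM in every early group, and of 14 granulosa and cumulus markers at most 2 did, with sums given beside Nr5a2. In every early library the small RNA gene Gm23935 took the most FPKM, from 5.98% of the sum in a knockout FGO library to 23.1% in a control L2C library. Libraries of E2C and L2C spread more than the others, with variance factors of 2.37 and 1.72 against 0.50 to 0.65 for FGO, MII and L1C, and the fit weighted each stage by its own factor. Centring each library on its median moved the median of all genes by 0.15 and 0.19 in the steps from L1C to E2C and by -0.25 and -0.31 in the steps from E2C to L2C (control and knockout, log2), so a change of that size over those steps depends on the scaling.

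In control fully grown oocytes the 10 members differed widely in level. Nfya was at 144 and 135 FPKM and Klf17 at 143 and 132 FPKM, ranges that overlapped. Esrrb, at 45.1 and 44.6 FPKM, came next, followed by Dppa2 at 34.0 and 26.1 FPKM, and by Nr5a2 at 17.8 and 16.7 FPKM and Tfap2c at 15.8 and 17.5 FPKM, whose ranges overlapped. Dppa4 was at 4.83 and 5.24 FPKM and Klf4 at 4.23 and 3.67 FPKM. Rarg, at 0.304 and 0.226 FPKM, and Klf5, at 0.0792 and 0.173 FPKM, were under 1 FPKM in all 10 FGO and MII libraries of both genotypes. The egg thus held RNA of 8 of the 10 factors, and Klf5 and Rarg were the 2 members with almost none.

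**Figure D1:**
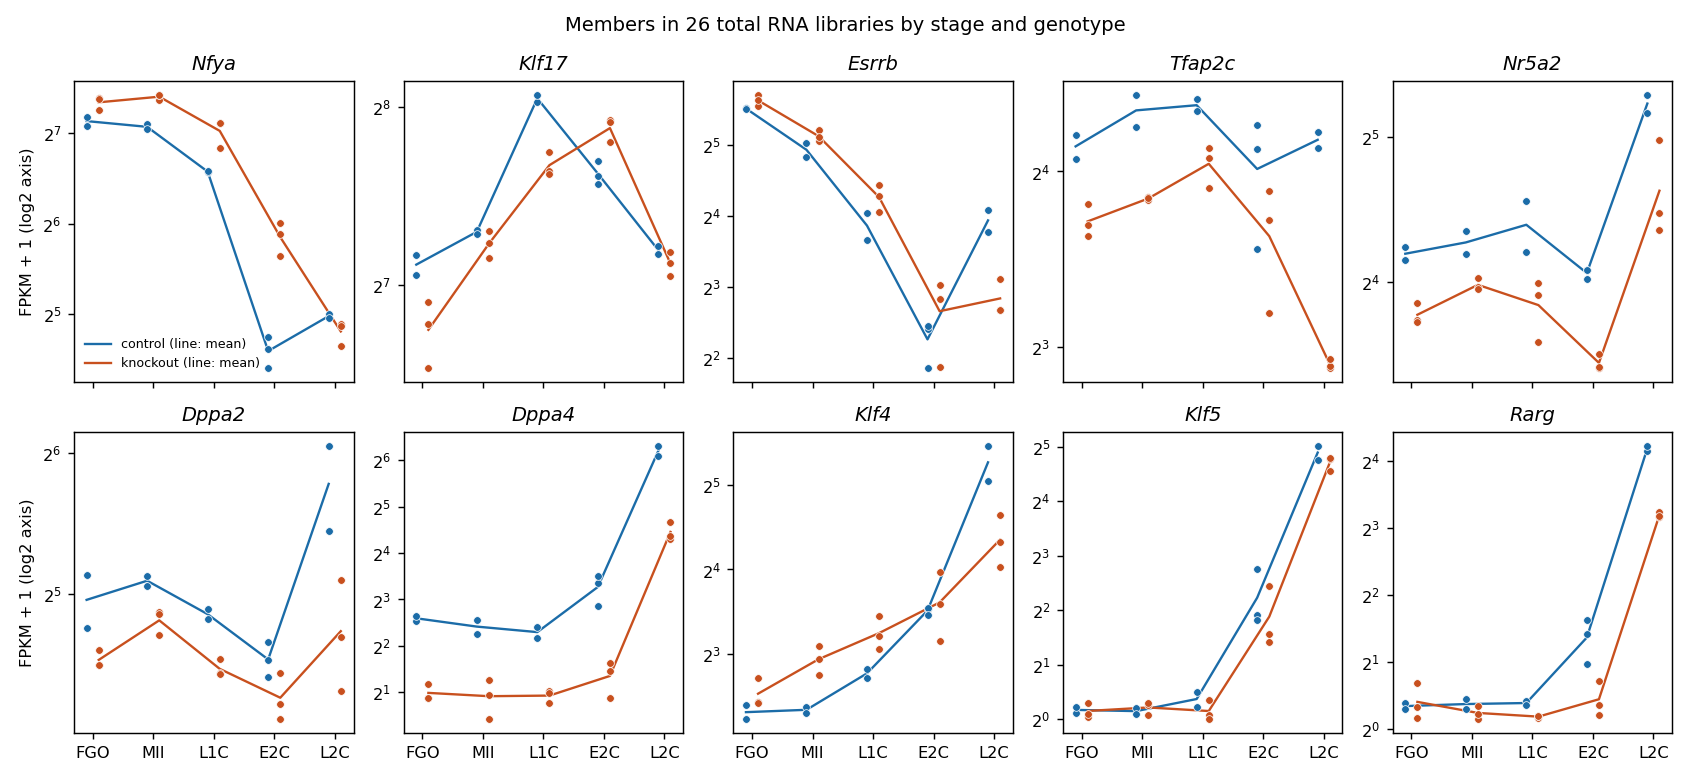
FPKM + 1 of the 10 members on log2 axes, each panel with its own range, at the 5 early stages; points are libraries, lines join group means, blue is control and orange knockout. Nfya and Esrrb start high and fall, Klf5 and Rarg start near 0 and rise in the 2-cell embryo, and knockout Dppa4 lies under control at every stage.

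From oocyte to zygote, Esrrb fell at both steps in controls, and Nfya fell and Klf17 and Klf4 rose at the second. From FGO to MII, Esrrb was the 1 member called in controls, where 5.39% of all genes were. It fell from 45.1 and 44.6 to 27.5 and 31.7 FPKM (log2 change -0.59 ± 0.16, limma adjusted p = 0.0339; log2 -0.69 to -0.49 over all 13 alternatives). The call was lost under most alternatives: each of the 4 leave-outs of a control library, median centring and TPM scaling with or without the top gene Gm23935. It was also lost with a pseudocount of 0.1, with no filter on low values and with 1 spread for all stages. In knockouts, where 13.8% of genes were called over this step, Esrrb fell by 0.50 ± 0.13 on the log2 scale, Klf17 rose by 0.49 ± 0.06 and Klf4 by 0.41 ± 0.12. The Esrrb call was lost without FGO knockout replicate 2 or MII knockout replicate 1, and the Klf4 call without FGO knockout replicate 1 or 2 or MII knockout replicate 2 or 3. From MII to L1C, with 25.4% of genes called in controls and 16.4% in knockouts, Klf17 rose in both, by 0.75 ± 0.08 in controls and 0.44 ± 0.07 in knockouts (log2). Esrrb kept falling, by 1.08 ± 0.16 in controls and 0.87 ± 0.13 in knockouts, and Nfya fell by 0.49 ± 0.08 and 0.38 ± 0.07. Klf4 rose by 0.43 ± 0.15 in controls, a call lost on leaving out any 1 of the 4 control libraries of the step, with TPM scaling and with a replicate block, and Dppa2 fell by 0.34 ± 0.10 in knockouts, a call lost without MII knockout replicate 2 or 3 or L1C knockout replicate 2 or 3 and under median centring and quantile normalization.

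Between L1C and E2C Nfya and Esrrb, high in the egg, fell in controls while 4 other members rose. In controls 4 members rose, against 18.1% of genes, and 4 fell, against 29.1%. Nfya went from 94.0 and 95.1 FPKM to 23.4, 25.8 and 20.2 FPKM, a log2 change of -1.99 ± 0.11 (limma adjusted p = 2.14e-11). Esrrb went from 11.6 and 15.5 to 4.30, 4.46 and 2.62 FPKM (log2 -1.62 ± 0.22, limma adjusted p = 4.55e-06), which left E2C with 8.47% of its mean in FGO. The groups of both genes were far apart. Klf5 rose from 0.422 and 0.165 to 5.78, 2.78 and 2.53 FPKM (log2 1.80 ± 0.24, limma adjusted p = 2.58e-06), and Rarg from 0.330 and 0.282 to 1.67, 2.1 and 0.955 FPKM (log2 0.95 ± 0.19, limma adjusted p = 0.000291). Dppa4 (0.95 ± 0.28) and Klf4 (0.74 ± 0.21) rose as well, the Dppa4 call being lost without E2C control replicate 3, with TPM scaling and with a pseudocount of 0.1. Klf17 (-0.42 ± 0.11) and Tfap2c (-0.40 ± 0.16) fell, and the Tfap2c call was lost without L1C control replicate 1 or 2 or E2C control replicate 1 or 3. Under median centring both of these calls were lost, and under quantile normalization the Tfap2c change was -0.06.

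From E2C to L2C, the step of major genome activation, 8 of the 10 members rose in controls, where 29.2% of all genes rose, and 1 fell, where 22.5% fell. Rarg rose 10.96-fold by its means, the largest ratio of the 10, from 0.955 to 2.1 FPKM up to 16.8 and 17.7 FPKM (log2 2.85 ± 0.23, limma adjusted p = 1.92e-09). Dppa4 rose 8.44-fold, from 6.29, 9.25 and 10.4 to 78.6 and 67.3 FPKM (log2 2.96 ± 0.35, limma adjusted p = 3.45e-07), and Klf5 7.79-fold, to 26.1 and 31.5 FPKM (log2 2.72 ± 0.29, limma adjusted p = 9.91e-08). In these 3 genes the lowest L2C library was several times the highest E2C library. Klf4 (1.74 ± 0.25), Esrrb (1.69 ± 0.27), Dppa2 (1.22 ± 0.21) and Nr5a2 (1.17 ± 0.20) rose less. Nfya rose by 0.39 ± 0.14, a call that was lost under median centring (0.14), TPM scaling (0.22) and quantile normalization and without E2C control replicate 3, L2C control replicate 1 or L2C control replicate 2. Klf17 fell by 0.43 ± 0.13, a call lost without L2C control replicate 2 and with a replicate block, and under quantile normalization its change was -0.01. Tfap2c, at 16.5, 18.2 and 10.8 FPKM in E2C and 17.7 and 16.6 FPKM in L2C, was not called.

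The order of the members in control L2C therefore differed from that in the oocyte. Klf17 was still highest at 148 and 143 FPKM. Dppa4, seventh in the oocyte, was next at 78.6 and 67.3 FPKM, above Dppa2 at 65.3 and 42.6 FPKM. Klf4 (32.0 and 43.2 FPKM) overlapped Dppa2 and Nr5a2 (34.9 and 38.1 FPKM). Nfya (31.0 and 30.1 FPKM) and Klf5 (26.1 and 31.5 FPKM) overlapped, and so did Rarg (16.8 and 17.7 FPKM) and Tfap2c (17.7 and 16.6 FPKM), with Esrrb lowest at 12.6 and 16.0 FPKM. By its means, Esrrb in L2C stood at 32.0% and Nfya at 21.9% of the oocyte level, Tfap2c at 103% and Klf17 at 106%, Dppa2 at 180% and Nr5a2 at 211%, with Klf4 at 9.52-fold, Dppa4 at 14.5-fold and Rarg at 65.0-fold. For Klf5, near 0 in the oocyte, no ratio is given.

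Members differed between genotypes at every early stage, and at each except MII more were lower in the knockout than higher. In FGO 5 members were lower and none higher in the knockout, against 9.97% and 3.91% of all genes (6.8% and 7.59% under median centring, where Nr5a2, Dppa2 and Tfap2c lost their calls and Nfya was called higher). In MII 2 were lower and 2 higher, against 10.2% and 6.57% (7.34% and 14.4% under median centring, 8.13% and 8.42% under quantile normalization), and the calls of Nfya, Klf4 and Tfap2c were lost with 1 spread for all stages. In L1C 5 were lower and 2 higher, against 10.0% and 7.60% (8.77% and 10% under median centring, where Dppa2 and Tfap2c lost their calls, as they did under TPM scaling). With 1 spread for all stages, and with the compared groups alone, some L1C calls of Klf4, Klf17 and Tfap2c were lost too. In E2C 3 were lower and 1 higher, against 7.28% and 6.20% (5.92% and 9.13% under median centring, 4.55% and 6.87% under TPM scaling). In L2C 7 were lower and none higher, against 17.2% and 17.0% (9.31% and 16.5% under TPM scaling). The median of the 10 members was -0.96 in L2C, beside 0.03 over all 15184 genes, and -0.32 in E2C, beside 0.00 (log2). The 1 higher member in E2C and the 2 in MII and L1C are counts too small to set apart from the shares of all genes.

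**Figure D2:**
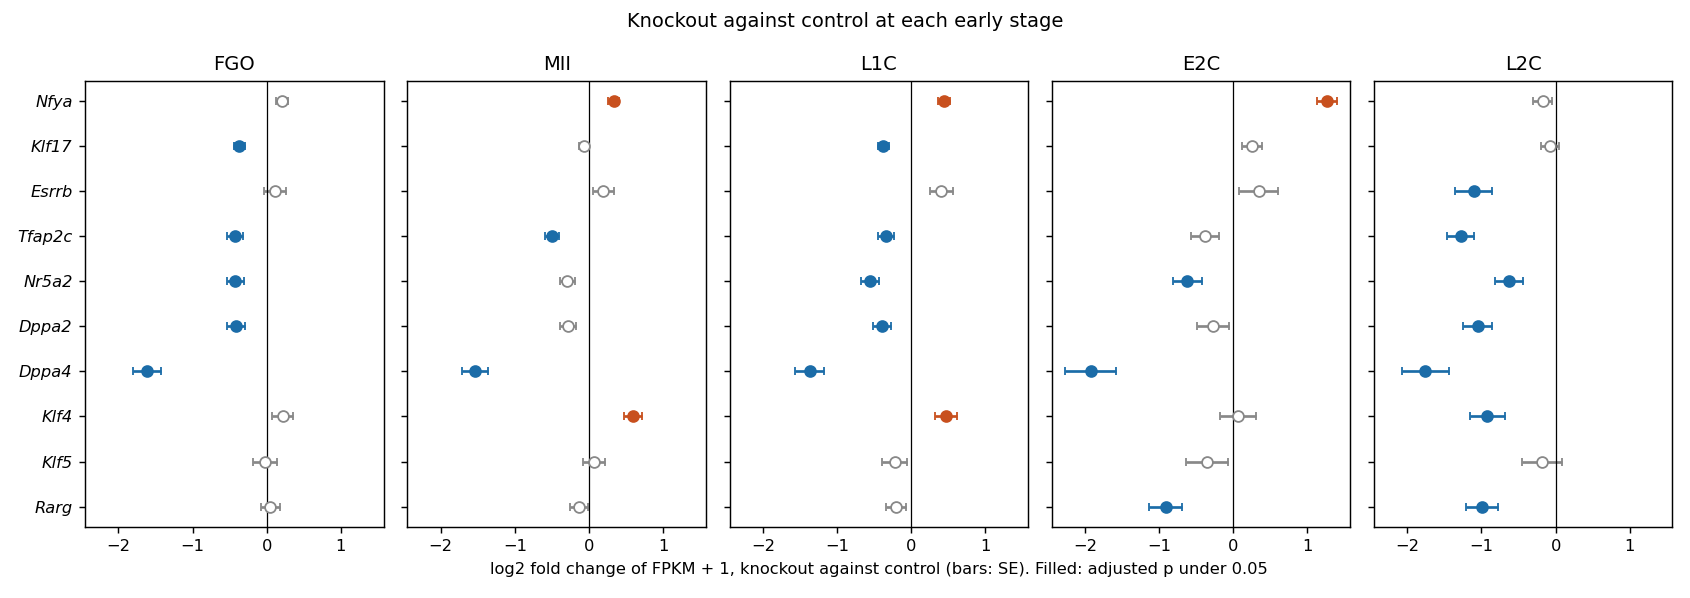
Log2 fold change of FPKM + 1, knockout against control, with SE, for the 10 members at each early stage; filled points passed limma adjusted p under 0.05, blue lower and orange higher. Dppa4 is lower at all 5 stages, Nfya is higher in MII, L1C and E2C, and in L2C 7 filled points lie left of 0.

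Dppa4 had the largest fitted knockout difference of the 10 members at each of the 5 stages, the oocyte included. Control FGO held 4.83 and 5.24 FPKM and knockout FGO 0.835, 0.842 and 1.26 FPKM, 19.4% of the control mean (log2 -1.62 ± 0.20, limma adjusted p = 4.25e-06). In MII the libraries were at 3.75 and 4.92 against 0.912, 0.335 and 1.40 FPKM, and in L1C at 4.29 and 3.53 against 0.705, 1.03 and 0.973 FPKM. The groups were apart at each of these stages, at 20.4% and 23.0% of the control mean. In E2C controls had 6.29, 9.25 and 10.4 FPKM and knockouts 2.08, 1.73 and 0.846 FPKM (log2 -1.93 ± 0.34, limma adjusted p = 0.000687). In L2C controls had 78.6 and 67.3 FPKM and knockouts 24.4, 18.8 and 19.7 FPKM, 28.7% of the control mean (log2 -1.76 ± 0.32, limma adjusted p = 0.000249). These 5 calls held under each alternative run. The knockout did rise from E2C to L2C, 13.5-fold from its low start (log2 3.13 ± 0.31, limma adjusted p = 6.04e-08) beside 8.44-fold in controls, and the steps did not differ in the test (log2 difference 0.17 ± 0.47, limma adjusted p = 0.869).

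Dppa2, the partner gene, lies next to Dppa4 on chromosome 16 (GRCm38, GENCODE M21: Dppa4 at chr16:48283733-48294237 and Dppa2 at chr16:48303908-48319723, both on the plus strand, 9670 bases apart), and its values before L2C were closer to control. In FGO it was at 34.0 and 26.1 FPKM in controls and 23.3, 21.5 and 21.5 FPKM in knockouts (log2 -0.42 ± 0.12, limma adjusted p = 0.0243), and in L1C at 27.2 and 28.7 against 22.2, 20.6 and 20.5 FPKM (log2 -0.39 ± 0.12, limma adjusted p = 0.0320). The first call was lost without FGO control replicate 1 or FGO knockout replicate 2 or 3. Median centring, 1 spread for all stages and the compared groups alone lost it too. The second was lost without L1C control replicate 1 or 2 or L1C knockout replicate 2 or 3. TPM scaling, median centring and 1 spread for all stages lost it too. In L2C controls had 65.3 and 42.6 FPKM and knockouts 33.3, 18.8 and 24.8 FPKM, 47.5% of the control mean (log2 -1.05 ± 0.20, limma adjusted p = 0.000346), a call that held under each alternative. Dppa2 rose in controls over E2C to L2C, whereas its change in knockouts (0.44 ± 0.19) was not called, and the difference of the steps was not called either (-0.78 ± 0.29, limma adjusted p = 0.0683). Of the 50-base words of its exons 29.1% also occur in other annotated genes, as do 31.3% for Dppa4, so the counting of both is uncertain. The Dppa2 copy Gm9788 reached at most 3.92 FPKM in the early libraries, and the Dppa4 copies Gm14058 and Gm5501 at most 1.64 and 1.52 FPKM, which is on the scale of knockout Dppa4 up to E2C.

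Nr5a2, whose protein is a pioneer factor of the 2-cell embryo, was lower in knockouts at 4 of the 5 early stages by the test. The libraries were at 17.8 and 16.7 against 12.3, 13.4 and 12.2 FPKM in FGO, at 19.3 and 17.2 against 14.6, 14.4 and 15.3 FPKM in MII, and at 17.4 and 22.5 against 14.9, 14.01 and 10.96 FPKM in L1C. In E2C they were at 15.9, 15.2 and 15.9 against 9.57, 9.61 and 10.3 FPKM, and in L2C at 34.9 and 38.1 against 21.3, 19.4 and 30.4 FPKM. At all 5 stages each knockout library lay below each control library. The log2 differences were -0.42 ± 0.11 in FGO (limma adjusted p = 0.0158), -0.29 ± 0.10 in MII (limma adjusted p = 0.0574, not called), -0.55 ± 0.12 in L1C (limma adjusted p = 0.00182), -0.62 ± 0.20 in E2C (limma adjusted p = 0.0427) and -0.63 ± 0.19 in L2C (limma adjusted p = 0.0135). The E2C call was lost on leaving out any 1 of the 6 E2C libraries and under median centring and TPM scaling. The FGO call was lost without FGO control replicate 1 or 2 or FGO knockout replicate 3, under median centring and with 1 spread for all stages. The L1C call was lost without L1C control replicate 2 and with the compared groups alone. The L2C call was lost without L2C control replicate 2 or L2C knockout replicate 2, under TPM scaling and with no filter on low values. From E2C to L2C the gene rose by 1.16 ± 0.18 in knockouts and 1.17 ± 0.20 in controls, the difference of the steps being -0.01 ± 0.27. Nr5a2 is also a gene of granulosa cells, and the summed level of 14 granulosa and cumulus markers was lower in knockouts too. It was 9.50 to 10.9 FPKM in control and 4.62 to 5.72 FPKM in knockout FGO. In L2C it was 4.01 to 4.13 against 2.56 to 3.34 FPKM, with no overlap at any early stage. In controls the sum was 6.16 to 7.71 FPKM in E2C and 4.01 to 4.13 FPKM in L2C, a step over which Nr5a2 rose. At most 2 of the 14 reached 1 FPKM in any early group, and Lhcgr was at 0 in all of these groups. The sum of 8 visceral endoderm markers, none reaching 1 FPKM, was also lower in knockouts without overlap at every early stage. In L2C it was 1.27 to 1.79 against 0.455 to 0.845 FPKM. The extraembryonic ectoderm and decidua sums overlapped in L2C. The part of granulosa and cumulus cells in the Nr5a2 result was not tested.

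Tfap2c, which marks the future trophectoderm later on, was lower in knockout FGO (11.4, 11.97 and 13.04 against 15.8 and 17.5 FPKM), MII (13.3, 13.4 and 13.4 against 20.7 and 18.1 FPKM) and L1C (14.01, 16.6 and 15.9 against 19.3 and 20.3 FPKM), with no overlap. The log2 differences were -0.43 ± 0.11 (limma adjusted p = 0.00898), -0.50 ± 0.10 (limma adjusted p = 0.000732) and -0.34 ± 0.11 (limma adjusted p = 0.0362). The FGO call was lost with a replicate block, without FGO control replicate 2, under median centring and with 1 spread for all stages. The L1C call was lost with a replicate block, under median centring and TPM scaling, and without L1C control replicate 1 or 2 or L1C knockout replicate 1. In E2C the groups overlapped and no call was made. In L2C controls were at 17.7 and 16.6 FPKM and the 3 knockout libraries at 6.34, 6.40 and 6.62 FPKM, 37.7% of the control mean (log2 -1.28 ± 0.18, limma adjusted p = 1.22e-05), a call that held under each alternative. Over the same step controls did not change by the test (0.20 ± 0.19) and knockouts fell (-0.70 ± 0.17).

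Klf17 had the highest mean FPKM of the members in L1C, E2C and L2C of both genotypes. It was lower in knockout FGO (91.8, 119 and 109 against 143 and 132 FPKM, log2 -0.37 ± 0.08, limma adjusted p = 0.00168) and in knockout L1C (214, 199 and 196 against 260 and 267 FPKM, log2 -0.37 ± 0.08, limma adjusted p = 0.00153). The FGO call was lost without FGO control replicate 1 and with the compared groups alone. The order was the reverse in E2C, where knockouts were at 222, 242 and 240 against 206, 189 and 194 FPKM. The groups did not overlap there, but no call was made (log2 0.25 ± 0.13, limma adjusted p = 0.234). In L2C the groups overlapped, at 148 and 143 FPKM in controls against 145, 132 and 139 FPKM in knockouts. Its exons share 9.31% of their 50-base words with Gm20690, an annotation with 2 gene models of which the higher reached 22.6 FPKM, so part of this level is uncertain.

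Nfya was higher in knockouts from MII to E2C and no longer in L2C. In FGO the knockout libraries were already all above the controls, at 152, 167 and 165 against 144 and 135 FPKM, without a call (0.21 ± 0.08, limma adjusted p = 0.0857). In MII they were at 164, 171 and 171 against 136 and 131 FPKM (log2 0.33 ± 0.07, limma adjusted p = 0.00169), and in L1C at 137, 138 and 113 against 94.0 and 95.1 FPKM (log2 0.44 ± 0.08, limma adjusted p = 0.000409). In E2C knockouts held 63.2, 58.3 and 48.9 FPKM where controls had 23.4, 25.8 and 20.2 FPKM, 2.45-fold higher by the means (log2 1.26 ± 0.14, limma adjusted p = 5.70e-06). In each of these stages the groups were apart. In L2C they stood at 24.0, 28.8 and 28.3 FPKM in knockouts and 31.0 and 30.1 FPKM in controls, without a call (-0.17 ± 0.13, limma adjusted p = 0.329). The L1C and E2C calls held under each alternative.

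Klf4 and Klf5 are paralogous factors that rose in the 2-cell embryo; Klf4 was called between genotypes at 3 stages and Klf5 at none. Klf4 was higher in knockout MII (5.72, 6.68 and 7.55 against 4.17 and 3.93 FPKM, log2 0.59 ± 0.13, limma adjusted p = 0.00194) and L1C (7.35, 9.87 and 8.23 against 5.56 and 6.06 FPKM, log2 0.47 ± 0.14, limma adjusted p = 0.0265), the latter call being lost without L1C control replicate 1 or 2 or L1C knockout replicate 2. In E2C the groups overlapped. In L2C it was lower, at 15.4, 19.1 and 23.9 against 32.0 and 43.2 FPKM (log2 -0.92 ± 0.23, limma adjusted p = 0.00398), a call lost without L2C control replicate 2 and with no filter on low values. Klf5 was at or under 0.422 FPKM in all 15 libraries up to L1C and reached 26.1 and 31.5 FPKM in control L2C and 26.3, 22.5 and 26.8 FPKM in knockout L2C, overlapping groups with no call at any stage (L2C -0.18 ± 0.27, limma adjusted p = 0.661).

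The nuclear receptors Rarg and Esrrb were both lower in knockout L2C. Rarg was near 0 up to L1C, and in E2C controls had 1.67, 2.1 and 0.955 FPKM and knockouts 0.635, 0.285 and 0.154 FPKM, groups that did not overlap (log2 -0.91 ± 0.23, limma adjusted p = 0.00931). That call was lost without E2C control replicate 2, with the compared groups alone and with a pseudocount of 0.1 (log2 -1.94). In L2C controls had 16.8 and 17.7 FPKM and knockouts 8.47, 7.92 and 8.04 FPKM, 47.2% of the control mean (log2 -0.996 ± 0.21, limma adjusted p = 0.00110). This call was lost under TPM scaling (log2 -0.91) and with a pseudocount of 0.1 (log2 -1.07). Esrrb went from 45.7, 51.4 and 48.6 against 45.1 and 44.6 FPKM in FGO to 7.15, 6.13 and 2.67 against 4.30, 4.46 and 2.62 FPKM in E2C, with no call between genotypes up to that stage. Before E2C, though, each knockout library lay above each control library in FGO, MII and L1C. The L1C libraries were at 20.7, 18.4 and 15.7 against 11.6 and 15.5 FPKM (log2 0.41 ± 0.16, limma adjusted p = 0.0810). In L2C controls were at 12.6 and 16.0 FPKM and knockouts were at 5.38, 5.40 and 7.68 FPKM (log2 -1.11 ± 0.25, limma adjusted p = 0.00185), a call that held under each alternative.

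The promoter windows of 4 members are shown, those called lower in knockout L2C for which a window was found. They are RefSeq sequence of GRCm38.p6 from 250 bases before to 50 after the gene's start, 5′ to 3′ on the gene's strand. Such windows were found for 6 of the 10 members; Dppa2, Dppa4, Klf5 and Tfap2c are named only. Capitals mark matches, on either strand, to 5 motifs of the members' own classes: CCAAT (NF-Y), AGGTCA (nuclear receptors), TCAAGGNCA (NR5A2 and ESRRB, which contains AGGTCA where N is T), GCCNNNGGC (AP-2) and GGGNGTGG (KLF). The Nr5a2 window is chr1:136960399-136960698, minus strand, the Klf4 window chr4:55532426-55532725, minus strand, the Rarg window chr15:102257473-102257772, minus strand and the Esrrb window chr12:86360867-86361166, plus strand.
Nr5a2: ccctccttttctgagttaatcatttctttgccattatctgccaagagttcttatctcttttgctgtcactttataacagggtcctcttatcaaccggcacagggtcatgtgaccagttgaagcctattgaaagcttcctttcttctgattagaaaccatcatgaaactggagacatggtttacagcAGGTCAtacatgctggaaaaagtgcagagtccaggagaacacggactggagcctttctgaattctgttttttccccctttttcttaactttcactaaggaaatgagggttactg
Klf4: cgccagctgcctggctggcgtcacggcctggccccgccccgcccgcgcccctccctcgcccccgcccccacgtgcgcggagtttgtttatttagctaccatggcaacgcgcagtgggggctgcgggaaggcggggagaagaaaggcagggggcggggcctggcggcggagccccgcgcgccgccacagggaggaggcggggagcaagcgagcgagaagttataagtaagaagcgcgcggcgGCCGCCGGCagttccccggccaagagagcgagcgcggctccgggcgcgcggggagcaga
Rarg: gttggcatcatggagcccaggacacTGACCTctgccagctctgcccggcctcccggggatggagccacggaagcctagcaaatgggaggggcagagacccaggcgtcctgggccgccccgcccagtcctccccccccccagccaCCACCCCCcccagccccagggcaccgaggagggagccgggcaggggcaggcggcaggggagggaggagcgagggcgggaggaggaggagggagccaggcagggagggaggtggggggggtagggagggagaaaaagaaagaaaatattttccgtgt
Esrrb: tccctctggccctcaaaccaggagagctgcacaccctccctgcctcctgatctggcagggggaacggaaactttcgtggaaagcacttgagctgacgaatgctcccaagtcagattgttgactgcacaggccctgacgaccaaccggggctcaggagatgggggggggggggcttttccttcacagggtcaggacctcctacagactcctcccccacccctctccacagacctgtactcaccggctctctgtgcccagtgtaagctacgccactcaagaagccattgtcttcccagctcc
The Nr5a2 window holds AGGTCA at base 187. The Rarg window holds the reverse complement of AGGTCA at base 26 and that of the KLF motif at base 145, and the Klf4 window holds the AP-2 motif at base 242. No letters of these 5 motifs were found in the Esrrb window. The windows of Nfya and Klf17, not called in L2C, were searched as well and are not printed. Nfya holds the AP-2 motif at base 154 and the KLF motif at bases 189 and 258. Klf17 holds CCAAT at base 100, the KLF motif at base 218 and TCAAGGNCA at base 223. Of all 32851 windows of the same length, 37.4% hold CCAAT, 16.3% AGGTCA, 1.62% TCAAGGNCA, 16.6% GCCNNNGGC and 17.6% GGGNGTGG. The matches in the 4 windows shown are thus of common kinds, and a match describes letters and not a bound site.

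Whether the 2 steps into and through the 2-cell stage differed between genotypes was tested directly. In knockouts, 1 member rose from L1C to E2C (Klf5, 1.67 ± 0.23) and 3 fell, against 15.2% and 26.5% of genes (20.7% and 20.5% under quantile normalization, 24.3% and 19.7% under median centring), where controls had 4 and 4 (24.2% and 23.9% of genes under median centring). From E2C to L2C, 5 knockout members rose and 3 fell, against 27.4% and 18.1% (19.3% and 31.7% under median centring, 22.2% and 26.9% under quantile normalization), where controls had 8 and 1 (23.5% and 32.1% of genes under median centring). The difference of the step L1C to E2C was called for 2 members, beside 3.35% of genes. Nfya fell by 1.99 ± 0.11 in controls and 1.18 ± 0.11 in knockouts, a difference of 0.81 ± 0.16 (limma adjusted p = 0.00669) that was lost with the compared groups alone. Klf17 fell by 0.42 ± 0.11 in controls and changed by 0.21 ± 0.11 in knockouts, a difference of 0.63 ± 0.15 (limma adjusted p = 0.0263) that was lost with a replicate block, under quantile normalization and without L1C control replicate 1 or 2, any of the 3 E2C control libraries, or E2C knockout replicate 2 or 3. With TPM without the top gene Gm23935, only 1 member was called for the difference of this step.

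**Figure D3:**
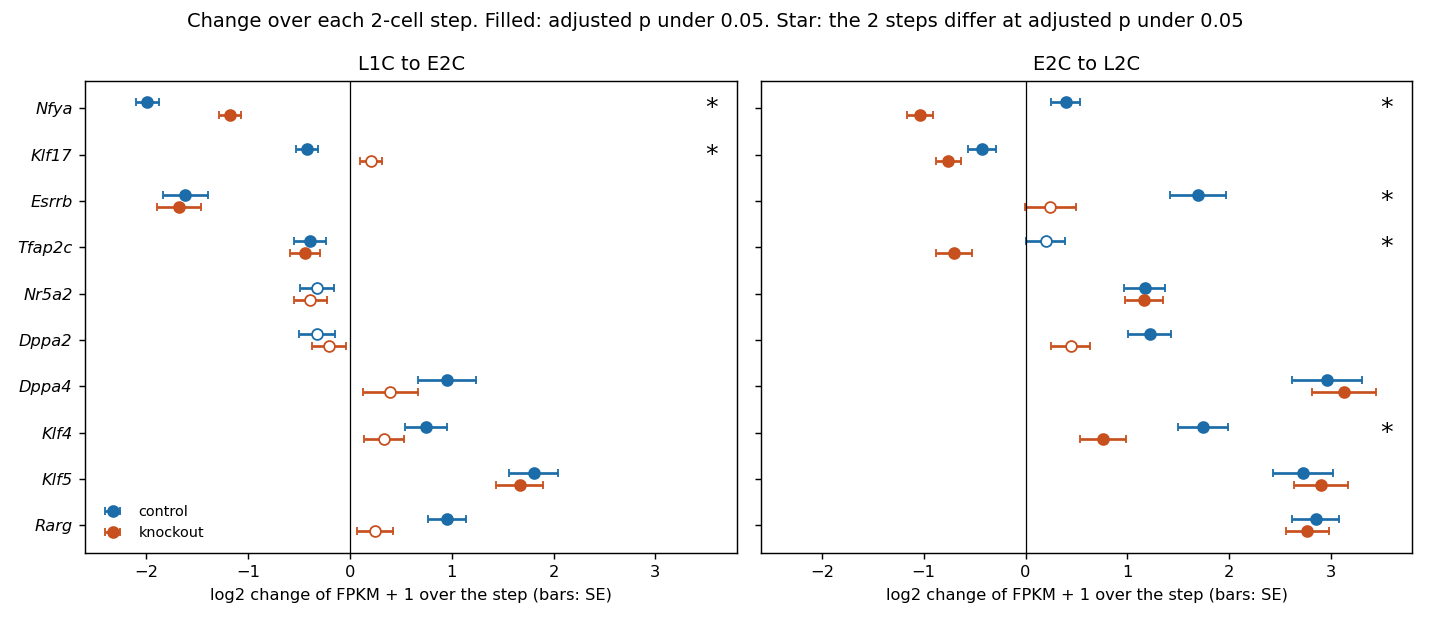
Log2 change of FPKM + 1 with SE over the steps from L1C to E2C and from E2C to L2C, control in blue and knockout in orange, filled where limma adjusted p is under 0.05; a star marks members whose steps differ by the interaction test. Over E2C to L2C the controls of Nfya, Esrrb, Klf4 and Tfap2c, which are starred, lie right of the knockouts. Those of Dppa2 and Klf17 do too, without a star, and Dppa4, Klf5, Rarg and Nr5a2 rise in both groups.

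Over E2C to L2C the difference was called for 4 members, all lower in knockouts, beside 18.9% of genes in either direction. Esrrb rose by 1.69 ± 0.27 in controls, while knockouts changed by 0.24 ± 0.25 (difference -1.45 ± 0.37, limma adjusted p = 0.00814). Nfya rose by 0.39 ± 0.14 in controls and fell by 1.04 ± 0.13 in knockouts (difference -1.43 ± 0.19, limma adjusted p = 1.86e-05). Klf4 rose by 1.74 ± 0.25 in controls and by 0.76 ± 0.23 in knockouts, the latter a call lost under median centring and without E2C knockout replicate 2 or L2C knockout replicate 3 (difference -0.98 ± 0.34, limma adjusted p = 0.0469), and Tfap2c changed by 0.20 ± 0.19 in controls and fell by 0.70 ± 0.17 in knockouts (difference -0.90 ± 0.26, limma adjusted p = 0.0173). The Klf4 call was lost without L2C control replicate 2, L2C knockout replicate 1 or 2, any E2C control library or E2C knockout replicate 1 or 3 and under TPM scaling, quantile normalization and a pseudocount of 0.1, and the Tfap2c call without E2C control replicate 3, E2C knockout replicate 3 or L2C control replicate 1, with TPM scaling and with a replicate block. With no filter on low values Nfya alone of the 4 kept its call. Dppa4, Klf5, Rarg and Nr5a2 rose in both groups, with differences of 0.17 ± 0.47, 0.18 ± 0.39, -0.08 ± 0.31 and -0.01 ± 0.27 that were not called. By its means Rarg rose 22.8-fold in knockouts and 10.96-fold in controls. Its knockout E2C libraries were under 1 FPKM, where the log2(FPKM + 1) scale understates changes. The 8 oocyte markers moved with genotype at this stage: their sum was 478 to 504 FPKM in control and 778 to 907 FPKM in knockout L2C, beside 942 to 1244 and 875 to 1128 FPKM in E2C, and their part in these differences was not tested.

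**Figure D4:**
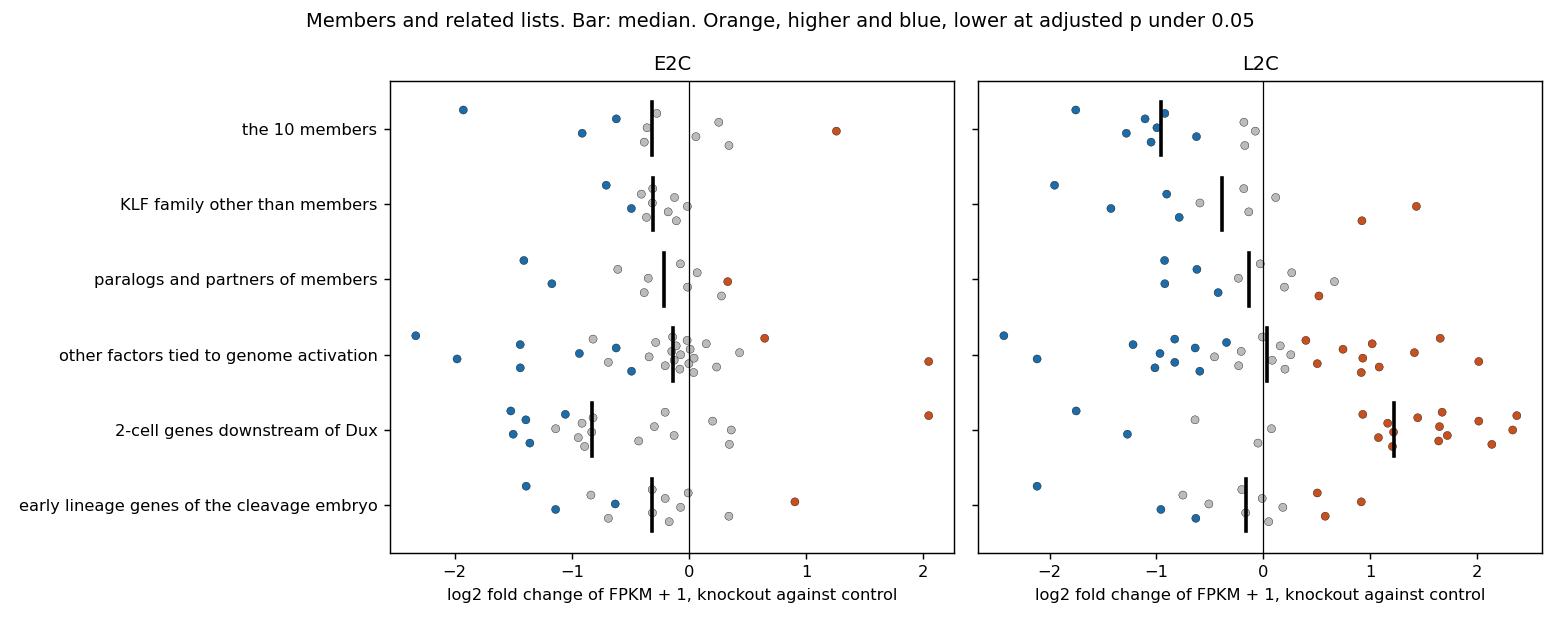
Log2 fold change of FPKM + 1, knockout against control, in E2C and L2C for the members and 5 related gene lists; each point is a gene, the black bar is the median, orange and blue mark higher and lower at limma adjusted p under 0.05. In L2C the member median is -0.96 and that of the genes downstream of Dux is 1.22.

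Other genes of the same families and of genome activation were read from 5 lists, whose counts stand beside 7.28% of all genes lower and 6.20% higher in E2C and 17.2% lower and 17.0% higher in L2C. Of the KLF family outside the members, 10 of 15 genes were tested, and 2 fell in E2C and 4 fell and 2 rose in L2C (medians -0.31 and -0.39). Klf2 went from 5.45 ± 0.97 (SD, n = 2) to 0.662 ± 0.160 FPKM (SD, n = 3) in L2C (log2 -1.95 ± 0.26) and Klf9 from 12.8 ± 1.5 to 4.11 ± 0.29 FPKM (log2 -1.43 ± 0.15), while Klf10 went from 4.08 ± 0.19 to 12.7 ± 0.8 FPKM (log2 1.43 ± 0.20). Among paralogs and partners of the members (10 of 14 tested), 2 fell and 1 rose in E2C and 4 fell and 1 rose in L2C (medians -0.21 and -0.13). Esrrg, a paralog of Esrrb, fell in E2C (log2 -1.17 ± 0.22) and L2C (-0.92 ± 0.21), and Nfyc, a further subunit of NF-Y, fell in L2C (-0.62 ± 0.12), whereas the AP-2 gene Tfap2e rose in L2C (0.52 ± 0.10).

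Of 29 other factors tied to genome activation, 28 were tested. In E2C 7 fell and 2 rose, beside 7.28% and 6.20% of all genes, and in L2C 10 fell and 10 rose, beside 17.2% and 17.0% (medians -0.13 and 0.04). In E2C the homeobox genes Obox3 (log2 -2.33 ± 0.42) and Obox6 (-1.98 ± 0.26) fell and Duxf3, the gene of the Dux locus, rose (2.05 ± 0.27, from 4.86 ± 1.35 to 23.0 ± 4.2 FPKM, SD, n = 3 and 3). In L2C Obox6 (-2.43 ± 0.25) and Tead4 (-2.12 ± 0.18), a trophectoderm factor, fell, and Zscan4d (2.02 ± 0.47) and Obox5 (1.65 ± 0.09) rose. The 19 genes downstream of Dux, all tested, had 5 lower and 1 higher in E2C and 14 higher and 2 lower in L2C (medians -0.83 and 1.22), against the same shares of all genes. In E2C Zfp352 fell (-1.50 ± 0.23), and in L2C Zscan4f rose (2.37 ± 0.44) and Tdpoz4 fell (-1.75 ± 0.33). Of the lineage genes of the cleavage embryo (13 of 16 tested), 3 fell and 1 rose in E2C and 3 fell and 3 rose in L2C (medians -0.31 and -0.17), the L2C counts being near the shares of all genes. Among them was Cdh1, the gene of E-cadherin, higher in both (0.90 ± 0.14 and 0.58 ± 0.14). The Duxf3, Obox, Zscan4 and Tdpoz genes have near-identical copies, so their counts are uncertain, and some genes stand in more than 1 list.

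At embryonic day 6.5 the members were spread over the lineages. Tfap2c was at 87.9 FPKM in the control EXE library and 83.6 and 76.0 FPKM in the knockout libraries, and at most 0.276 FPKM in EPI and VE. Esrrb was likewise at 22.8 against 23.1 and 38.3 FPKM in EXE and at most 0.436 FPKM elsewhere. Klf5 was at 39.6 against 36.1 and 25.2 FPKM in EXE and at 18.5 and 17.5 against 22.4 and 12.5 FPKM in VE, while Rarg was at 11.4 and 5.83 against 17.9 and 10.5 FPKM in EPI. Dppa4 was at 44.9 and 79.0 against 106 and 195 FPKM in EPI and 176 against 150 and 240 FPKM in EXE. Nr5a2 and Klf17 did not exceed 0.360 and 1.35 FPKM in any of the 11 libraries. EXE, with 1 control library, has no test. The defining markers of the 3 lineages were present: 8 visceral endoderm markers summed to 6992 to 8231 FPKM in VE and at most 14.1 FPKM elsewhere, and 6 EXE markers to 400 to 466 FPKM in EXE and at most 28.9 FPKM elsewhere. The 7 epiblast markers summed to 1111 to 1646 FPKM in EPI, but also to 408 to 518 FPKM in EXE. All 7 reached 1 FPKM in the control EXE library and in EXE knockout replicate 2, and 2 of the 7 did in EXE knockout replicate 1. Their part in the EXE levels was not tested.

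**Figure D5:**
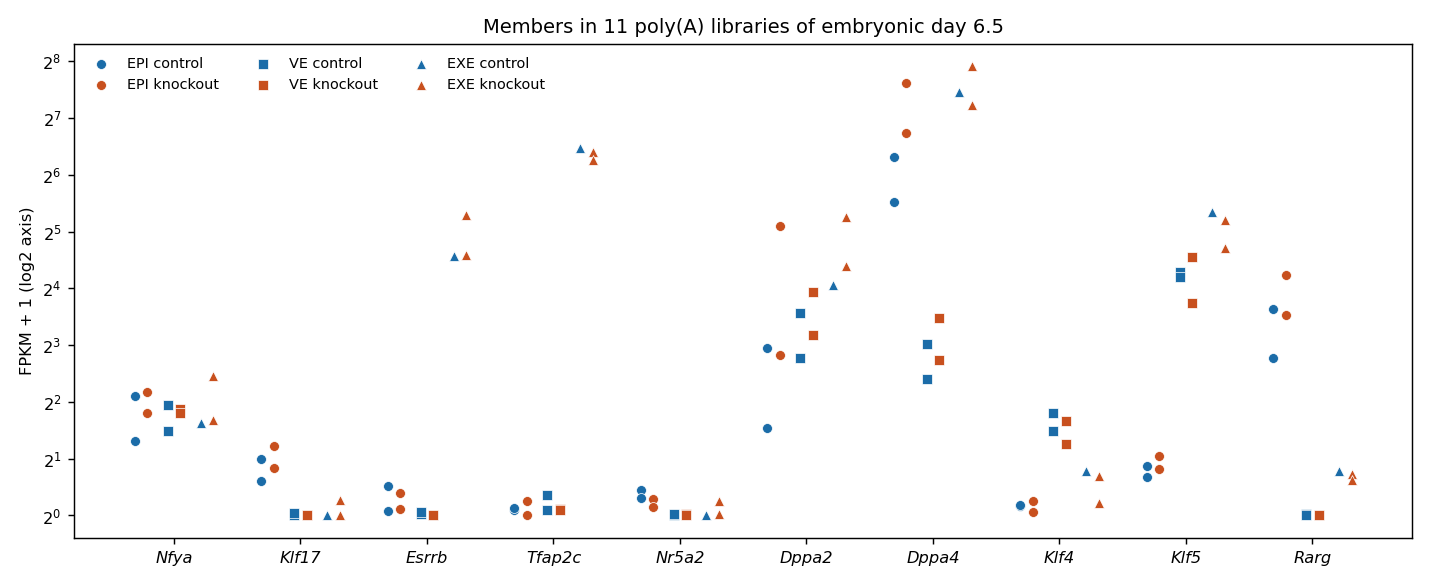
FPKM + 1 of the 10 members on a log2 axis in the 11 poly(A) libraries; circles are EPI, squares VE and triangles EXE, blue is control and orange knockout. Tfap2c and Esrrb are high in EXE, Rarg is highest in EPI, and Nr5a2 and Klf17 lie near the bottom in every lineage.

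In the fit of EPI and VE 6 of the 10 members were tested (Nr5a2, Klf17, Tfap2c and Esrrb did not reach 1 FPKM in 2 libraries), over 13376 genes. None of the 6 was called by limma in EPI, where 0% of genes were, or in VE, where 0.00748% were. At an unadjusted limma p under 0.05, 1 member passed in EPI and 0 in VE. Dppa4 in EPI had a log2 difference of 1.26 ± 0.54 and Dppa2 of 1.72 ± 0.81 (limma adjusted p = 1 for both). Dppa2 overlapped between the EPI groups and ranged from 1.92 to 33.4 FPKM. Bap1 was at 14.02 to 22.6 FPKM in control and 18.4 to 33.8 FPKM in knockout day 6.5 libraries. The summed epiblast markers were 1111 to 1306 FPKM in control and 1378 to 1646 FPKM in knockout EPI, beside these differences, and their part was not tested.

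Likeness of pattern was described by Pearson's r of the group means of log2(FPKM + 1) over the 10 early groups, among 8034 genes and with no test, since the groups share libraries of 1 series and a common rise or fall over stages gives high values. Rarg was most like Scd1, Atxn7l3 and Tox4 (r = 0.999, 0.998 and 0.998), Klf5 most like Mt1 (0.999), Klf4 most like Rb1cc1 (0.995), Esrrb most like Tmem131l (0.995) and Nfya most like Sufu (0.993). Dppa4 was most like Ap4b1 (0.987), Klf17 like Kcnk18 (0.984), Nr5a2 like Grhl2 (0.965), Dppa2 like Tprn (0.951) and Tfap2c like Yipf4 (0.943). Among the members, Klf5 and Rarg were closest (0.958), followed by Klf4 and Klf5 (0.933) and by Dppa4 and Rarg (0.930), and Nfya ran opposite to Klf5 (-0.878). Dppa2 and Dppa4 had 0.715.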

How the data were processed

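The authors deposited FPKM values, 1 column per library, in a table for the 26 total RNA libraries (SMART-Seq Stranded, per the labels' protocols) and a table for the 11 poly(A) libraries (SMART-Seq mRNA and Nextera XT). The submitters' processing notes name Trim Galore 0.6.6, STAR 2.7.9, StringTie 2.1.7 and the build mm10, with no roles. The annotation, filters, strand setting and scaling total are not given in the sources used here. The control epiblast replicate 1 column of the authors' table is listed here under an other unit: FPKM cannot be negative and 1 of its values was, which was set to 0. Low values did not fall on whole steps (14.8% of 400 within 0.05), so the depth is unknown and the number of libraries limits the precision. Of 55401 gene identifiers, 54349 are in GENCODE M21.

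Values were analysed as log2(FPKM + 1) in genes that reached 1 FPKM in 2 or more libraries of a fit, with limma 3.58.1 in R 4.3.3 (arrayWeights by stage or lineage, eBayes with trend, Benjamini-Hochberg, 0.05), tested on simulated data. The early libraries were fitted together, and EPI with VE. Python 3.11.15, pandas 2.3.3 and matplotlib 3.10.9 made tables and plots. Alternatives were a pseudocount of 0.1, no filter, TPM with and without the gene of most FPKM, median centring, quantile normalization, 1 spread for all stages, a fit of the compared groups alone, a replicate block, and leaving out each replicate. All 10 members were named in every comparison; from each list, at most the top 2 risers and top 2 fallers in E2C and in L2C, among called genes without overlap and at least 5 FPKM in the higher group. The members and lists were chosen with earlier results of these data known.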

Additional observations from a re-analysis of the deposited data

Results flagged for a closer look

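Differences of a step between genotypes, tested as interaction terms with limma, drew attention to 5 members. From L1C to E2C, Nfya fell less in knockouts than in controls by 0.81 and Klf17 moved apart by 0.63 (log2). From E2C to L2C, the knockout step was below the control step by -1.43 for Nfya, -0.98 for Klf4, -0.90 for Tfap2c and -1.45 for Esrrb. Groups of 2 or 3 libraries were not checked for outlying samples.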

How the results depend on the processing

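Of 162 tests of a member, 74 were called, and 41 of these kept their call under every alternative run. None of the 74 changed direction, and 18 of the 88 uncalled ones gained a call under some alternative. The number of members called moved by over 1.5 times as follows, and the cause was not tested. With 1 spread for all stages it was 2 in place of 5 in FGO, 1 in place of 4 in MII, 4 in place of 7 in L1C, 0 in place of 1 for MII against FGO in controls and 1 in place of 3 in knockouts. With the compared groups alone it was 3 in FGO, 4 in L1C and 1 in place of 2 for the difference of the step L1C to E2C. Median centring gave 3 in FGO and 0 for MII against FGO in controls, which was also 0 with a pseudocount of 0.1, with no filter, with TPM scaling and with TPM without the top gene. The difference of the step L1C to E2C had 1 member with quantile normalization and with TPM without the top gene, and that of the step E2C to L2C had 1 with no filter and 2 with TPM scaling in place of 4. Leaving out each replicate gave 2 to 6 members in FGO, 4 to 5 in MII, 3 to 7 in L1C, 2 to 4 in E2C, 5 to 7 in L2C, 0 to 0 for MII against FGO in controls, 1 to 3 in knockouts, 1 to 2 for the difference of the step L1C to E2C and 2 to 4 for that of E2C to L2C. Where this left 1 control library, that library was assumed to vary like the other groups. Over all genes, 1 spread called 2146 higher and 2261 lower in E2C in place of 941 and 1105, and 126 and 777 in FGO in place of 593 and 1514.

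Replicate numbers are not said to pair samples. Deviations of same-numbered libraries correlated at -0.077 to 0.142 in the early stages, and at 0.593 in EPI and 0.429 in VE, with 2 pairs each. With the replicate block, 4 members were called in FGO, 6 in MII, 7 in L1C, 4 in E2C, 7 in L2C, 1 for the difference of the step L1C to E2C, and 0 in EPI and VE.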
